A study of Homo sapiens with 15 samples.

Results

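Striated myosin heavy chains are the motor proteins of the thick filament in skeletal and cardiac muscle. The 10 genes described here, MYH1, MYH2, MYH3, MYH4, MYH6, MYH7, MYH7B, MYH8, MYH13 and MYH15, were taken by name from a table of 17999 genes measured by mRNA sequencing in 15 human cultures. All 10 were present in the table. Levels are given in FPKM, fragments scaled to transcript length and to the mapped fragments of the library, so levels of different genes are compared per length. Of the 10 genes, 4 (MYH3, MYH8, MYH7 and MYH7B) reached 1 FPKM in at least 1 library and entered the tests across 14129 genes, and 6 stayed below 1 FPKM in every library. MYH8 and MYH7B passed this filter only through the muscle libraries, so their higher level in muscle was set by the filter.

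The cultures came from H1 and HUES9, established wild-type human embryonic stem cell lines, and the question of the series is whether self-renewing neuromesodermal progenitors (srNMP) can give both neurons and skeletal muscle. Muscle was represented by 1 HUES9 library at day 50 and 1 HUES9 library at day 40 of skeletal muscle induction, and no H1 muscle library was analysed here. Dorsal neurons, ventral neurons and 2 neuron progenitor inductions at day 7, labelled RABC and RASS, each had 1 library per line, all under neural induction. The srNMP had 1 library per line at passage 25 and 1 per line at passage 8, and undifferentiated embryonic stem cells (ESC) had 1 HUES9 library. For the tests the libraries were joined into 5 states: muscle (n = 2), neurons (n = 4), progenitors (n = 4), srNMP (n = 4) and ESC (n = 1). Labels do not say whether libraries came from separate cultures beyond line, passage and day, so p-values measure only the spread between these libraries.

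Each fibre uses a small set of heavy chain genes, and the set changes as muscle matures. MYH3 encodes the embryonic and MYH8 the perinatal (neonatal) chain, both used mainly in developing and regenerating muscle. MYH7 encodes the slow chain of slow fibres and of the ventricle, and MYH2, MYH1 and MYH4 encode the fast chains of adult fibres, with MYH4 little used in human limb muscle. MYH6 encodes the atrial chain, MYH13 the chain of eye muscles, and MYH7B and MYH15 encode ancient slow-type chains with restricted use. In mammals the skeletal genes other than MYH7 stand side by side in a cluster, which on human chromosome 17 runs MYH13, MYH8, MYH4, MYH1, MYH2, MYH3 along the chromosome, all on the minus strand. MYH6 and MYH7 are neighbours on the minus strand of chromosome 14, MYH7B lies on the plus strand of chromosome 20 and MYH15 on the minus strand of chromosome 3.

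The coding sequences are similar enough that reads can be shared, so a stretch of 60 aligned coding bases in which MYH3, MYH8 and MYH7 differ most is shown for the developmental, slow and fast genes (GENCODE 29, GRCh38, 5′ to 3′ on the coding strand, capitals marking bases that differ from MYH3).
MYH3: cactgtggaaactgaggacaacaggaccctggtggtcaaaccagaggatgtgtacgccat
MYH8: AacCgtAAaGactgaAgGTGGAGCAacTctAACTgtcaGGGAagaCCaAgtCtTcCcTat
MYH7: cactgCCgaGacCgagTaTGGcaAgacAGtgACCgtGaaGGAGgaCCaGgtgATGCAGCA
MYH1: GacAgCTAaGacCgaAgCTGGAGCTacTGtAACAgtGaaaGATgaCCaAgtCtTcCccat
MYH2: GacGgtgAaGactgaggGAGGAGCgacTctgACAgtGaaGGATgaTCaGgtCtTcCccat
MYH4: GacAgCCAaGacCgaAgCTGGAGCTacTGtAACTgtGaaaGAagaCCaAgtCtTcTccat
In this stretch MYH8 and MYH7 each differed from MYH3 at 30 of 60 bases. Over the whole coding sequence MYH3 and MYH8 were 79.4% identical, MYH3 and MYH7 74.8%, MYH1 and MYH2 91.1%, and MYH6 and MYH7 90.9%. Of all 50-base windows, 4.07% in MYH3, 8.50% in MYH8 and 15.2% in MYH7 had an exact copy in another of the 10 genes, against 21.6% in MYH1, 18.6% in MYH2, 14.1% in MYH4 and 15.2% in MYH6. MYH7B and MYH15 had none. In MYH13 the part was 9.37%, and its longest run shared with MYH8 was 192 bases. The handling of shared reads is not given in the sources used here. The low values of MYH1, MYH2, MYH4, MYH6 and MYH13 are therefore uncertain.

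MYH3 was the most abundant of the 10 genes in muscle, at 1952 FPKM in the day 50 library and 1304 FPKM in the day 40 library, where it ranked 10 and 19 among all genes. MYH8 followed at 365.2 FPKM at day 50 and 152.6 FPKM at day 40, and MYH7 at 31.2 and 17.8 FPKM. MYH7B reached 9.25 FPKM at day 50 and 7.88 FPKM at day 40. The order of these 4 genes was the same in both libraries, and the values of neighbouring genes did not overlap between days.

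The adult fast genes were near the bottom of the range. MYH2 had 0.420 FPKM at day 50 and 0.362 FPKM at day 40. MYH1 had 0.0795 and 0.0191 FPKM. MYH4 was listed at 0 at day 50 and at 0.00461 FPKM at day 40. All 3 were below 0.5 FPKM in both libraries.

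The eye muscle and cardiac chains were also low. MYH13 had 0.599 FPKM at day 50 and 0.173 FPKM at day 40, and atrial MYH6 had 0.363 and 0.0776 FPKM. MYH15 had 0.108 and 0.120 FPKM, inside the range of 0.0122 to 0.136 FPKM seen in the 13 libraries outside muscle. Among the 6 genes below 1 FPKM, MYH13 was the highest and MYH4 the lowest at day 50.

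**Figure D1:**
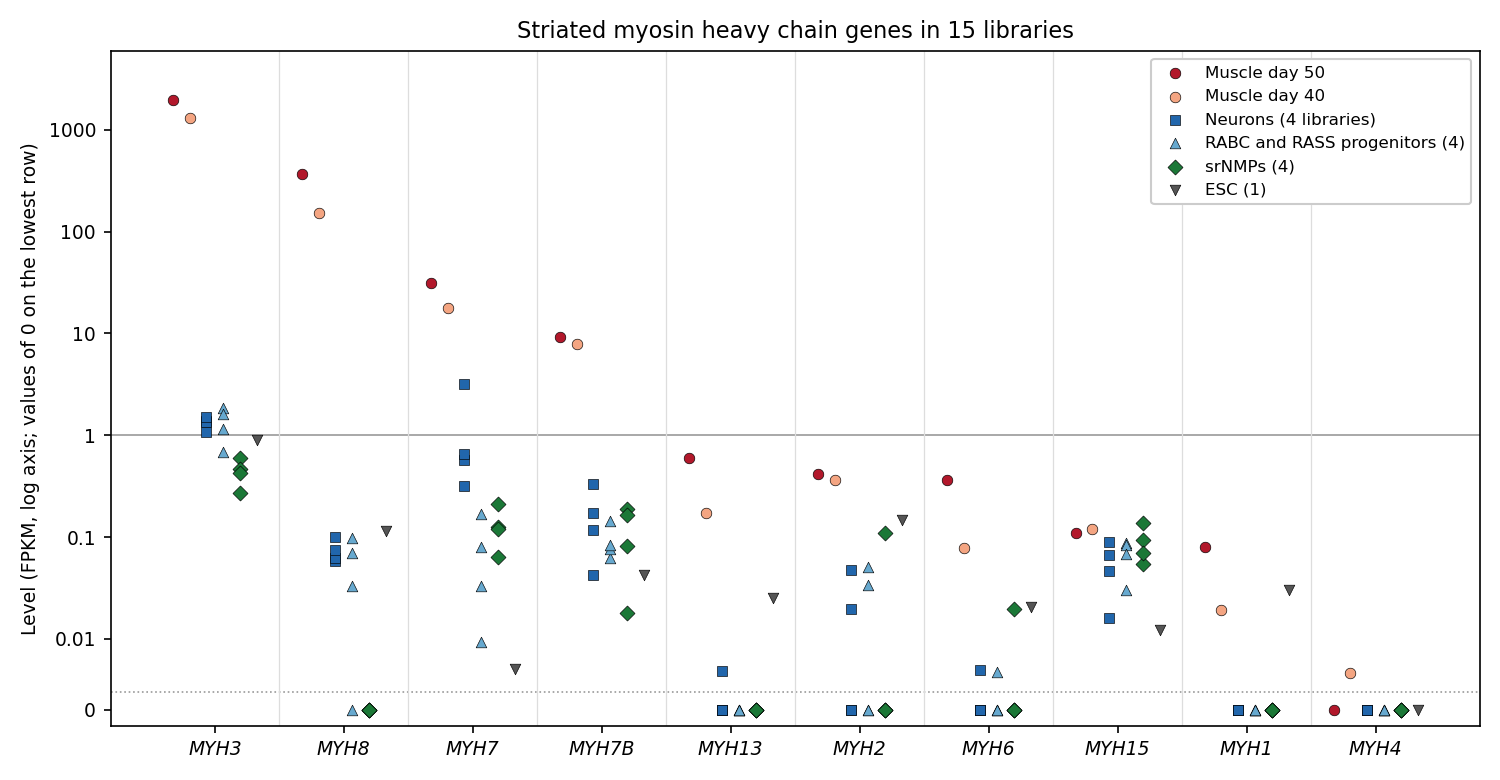
Level in FPKM (log axis, 0 drawn at the bottom) of each of the 10 myosin heavy chain genes in all 15 libraries, with 1 point per library and colours for the groups. The muscle points of MYH3 (1952 and 1304 FPKM), MYH8 (365.2 and 152.6) and MYH7 (31.2 and 17.8) lie above all other libraries, and MYH15 overlaps them.

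The 10 genes together made up 2359 FPKM at day 50 and 1483 FPKM at day 40, or 0.771% and 0.505% of the summed FPKM of the library. Embryonic MYH3 held 82.7% of the heavy chain sum at day 50 and 87.9% at day 40, and perinatal MYH8 held 15.5% and 10.3%. Slow MYH7 held 1.32% and 1.20%. The 3 fast genes together held 0.0212% at day 50 and 0.0260% at day 40, and the remaining genes, of which MYH7B was the largest part, 0.438% and 0.557%. With 1 library per day, there is no replicate check of these shares, and no interval was computed because the counts are unknown.

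**Figure D2:**
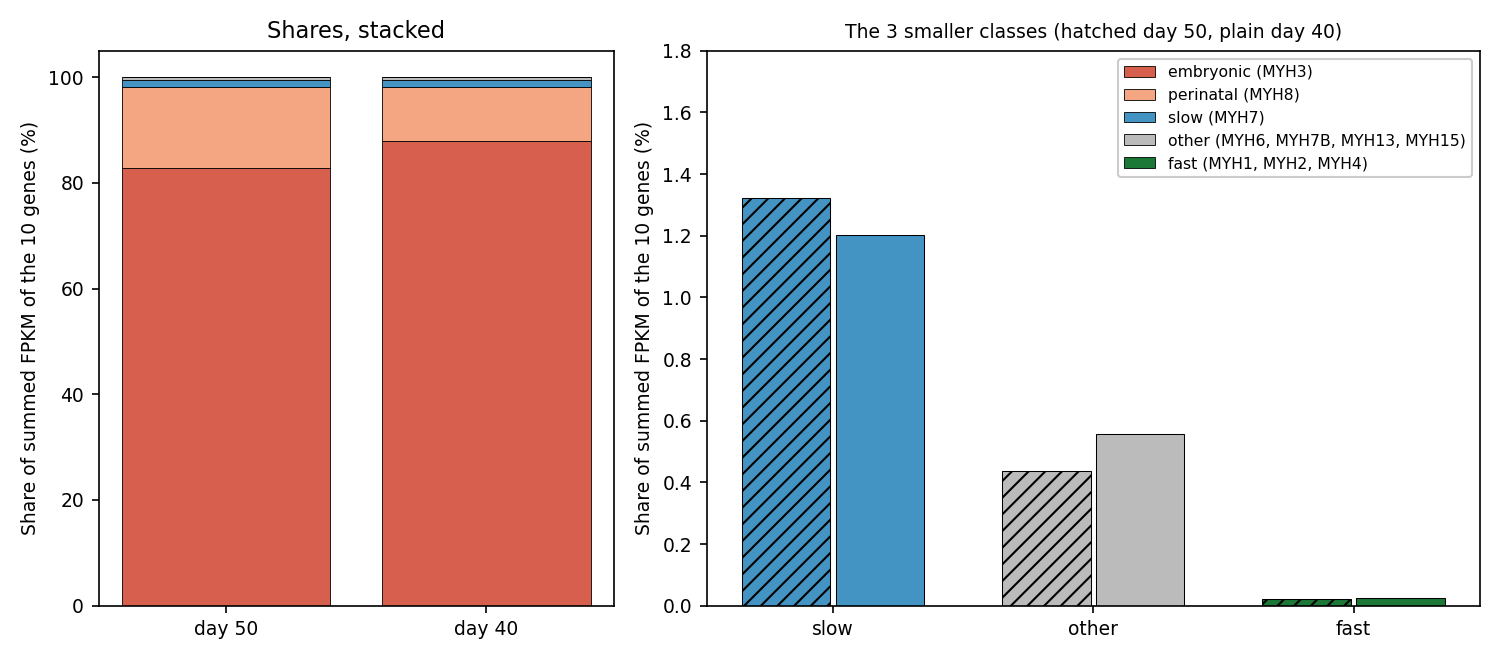
Share in percent of the summed FPKM of the 10 genes held by each isoform class in the muscle libraries of day 50 and day 40, stacked on the left, and for the 3 smaller classes on the right. MYH3 and MYH8 fill all but a thin band in both libraries, with a perinatal share of 15.5% at day 50 and 10.3% at day 40.

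Within the chromosome 17 cluster, level did not follow position. MYH3 at one end and MYH8 near the other were the abundant genes, and MYH4, MYH1 and MYH2, which lie between them, were all below 0.5 FPKM. MYH13, next to MYH8, was also below 1 FPKM.

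**Figure D3:**
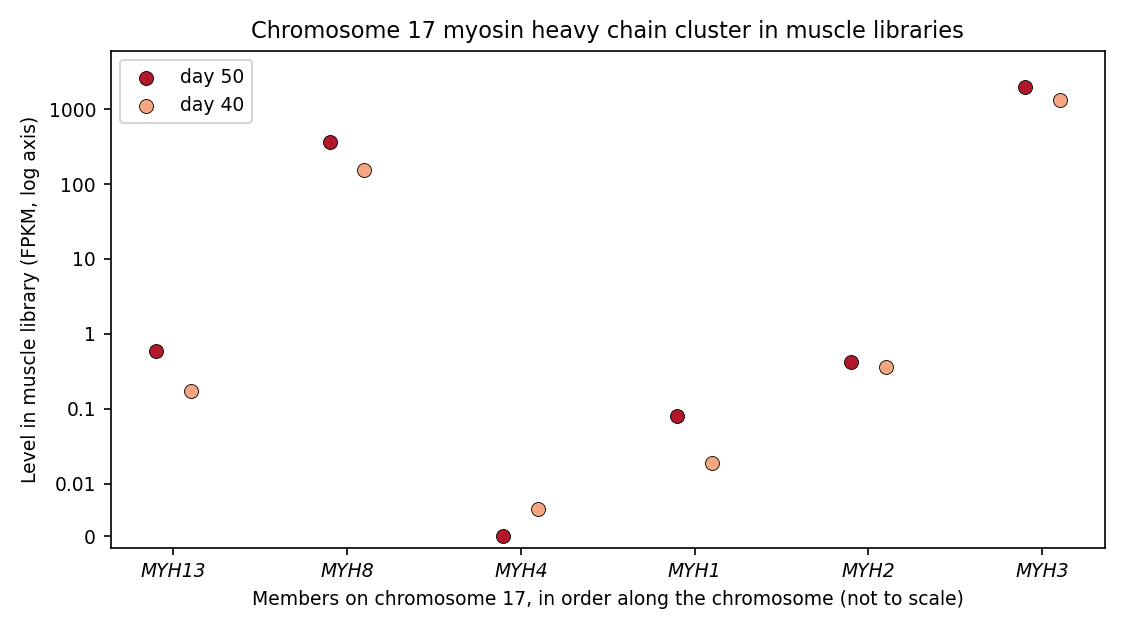
Level in FPKM (log axis, with 0 marked at the bottom) of the 6 chromosome 17 genes in their order along the chromosome, not to scale, with 1 point for each muscle library. MYH8 (365.2 at day 50 and 152.6 at day 40) and MYH3 (1952 and 1304) stand above MYH4, MYH1 and MYH2, which lie between them.

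The promoters of MYH8, abundant in muscle, and MYH4, almost absent, are shown as a pair from the same cluster (RefSeq, GRCh38.p14, minus strand, 250 bases before to 50 after the start; capitals mark the E-box CANNTG, the motif that myogenic factors such as MyoD bind, and TATAAA on either strand, with no overlap between them).
MYH8, chr17:10421901-10422200: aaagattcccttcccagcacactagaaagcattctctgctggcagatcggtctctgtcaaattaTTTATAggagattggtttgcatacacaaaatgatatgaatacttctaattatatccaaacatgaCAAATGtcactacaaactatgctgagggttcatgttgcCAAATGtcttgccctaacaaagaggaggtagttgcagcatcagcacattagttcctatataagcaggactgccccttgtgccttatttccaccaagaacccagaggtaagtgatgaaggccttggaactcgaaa
MYH4, chr17:10469510-10469809: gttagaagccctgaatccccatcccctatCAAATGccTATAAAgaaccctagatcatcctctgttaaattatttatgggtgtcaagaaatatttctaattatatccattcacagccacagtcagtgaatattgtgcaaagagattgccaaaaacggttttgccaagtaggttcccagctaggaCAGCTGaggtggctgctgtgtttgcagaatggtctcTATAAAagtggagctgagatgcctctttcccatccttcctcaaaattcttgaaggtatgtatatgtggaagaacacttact
Both windows held 2 E-boxes, and TATAAA occurred 1 time in MYH8 and 2 times in MYH4, while their levels in the day 40 library were 152.6 and 0.00461 FPKM. Promoters were matched for 7 of the 10 genes, all except MYH3, MYH7 and MYH7B. Of these 7, 4 held an E-box and 7 held TATAAA, against 68.7% and 11.5% of 35116 promoters of the same length. TATAAA was counted anywhere in the window: it lay at -145 in MYH15 and -186 in MYH8, and the other matched genes had it at -31 to -29. Of 2 further motifs searched, the MEF2 site occurred in 0 and the MCAT motif CATTCC in 3 of the 7, against 0.57% and 14.0% of all promoters. These matches describe letters in the windows and not binding.

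Between days, MYH8 differed most among the genes above 1 FPKM. It was 2.39 times as high at day 50 as at day 40, a difference of 1.25 in log2(FPKM + 1). Of 14129 genes, 44 had a larger difference upward, and differences downward were not counted in this rank. MYH7 was 1.75 times as high (0.77 on that log2 scale), MYH3 1.497 times (0.58) and MYH7B 1.17 times (0.21). The median difference of all genes was 0.06, and 0.722% of genes were at 1 or more and 0.835% at -1 or less. Of the tested myosin genes only MYH8 passed a difference of 1. The ratio of MYH8 to MYH3 was 0.187 at day 50 and 0.117 at day 40, whereas the ratio of MYH7 to MYH3 was 0.0160 and 0.0137. These are differences between single libraries, and no test can be run.

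Among the partners of the heavy chain, the thick filament sum had a ratio between days like that of the heavy chain sum. The light chain sum had a lower one. The sum of 10 thick filament and M-band genes was 1218 FPKM at day 50 and 767 FPKM at day 40, a ratio of 1.59, and the heavy chain sum also had a ratio of 1.59. Single genes carried much of each sum. MYBPH alone had 725 FPKM at day 50 and 442 FPKM at day 40, and MYH3 held most of the heavy chain sum. Gene by gene, the tested partners differed between days by 0.37 (OBSL1) to 0.97 (MYBPC2) in log2(FPKM + 1). The summed heavy chains were 1.94 times the sum of these partners at day 50 and 1.93 times at day 40. The sum of 13 myosin light chain genes was 5967 FPKM at day 50 and 4746 FPKM at day 40, a ratio of 1.26. This list also holds light chains abundant outside muscle, such as MYL6, named after its values were seen. MYL6 had 640 FPKM at day 50 and 735 FPKM at day 40, and averaged 902 FPKM in srNMP. The median difference of the 10 light chains tested was 0.04. Of these 10, 5 were higher at day 50, among them MYL1 (0.39), MYL4 (0.52) and MYLPF (0.51). The heavy chains were 0.395 times the light chain sum at day 50 and 0.312 times at day 40. The SERCA1 calcium pump gene ATP2A1, used in fast fibres and picked out after its values were seen, had 109.8 FPKM at day 50 and 43.8 FPKM at day 40. The 5 myogenic regulators tested had a median difference of 0.79, with MYOD1 at 125.9 and 67.3 FPKM and MYOG, the factor of terminal differentiation, at 539 and 312 FPKM. PAX7, a marker of muscle stem cells chosen here after its values were seen, had 17.1 and 1.36 FPKM, and reached 29.5 FPKM in a library outside muscle.

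Markers of fibroblasts and smooth muscle moved the other way. Their summed level over 12 genes was 11723 FPKM at day 50 and 18933 FPKM at day 40, and 1 of the 11 tested was higher at day 50. COL1A1, a fibrillar collagen gene, had 4699.9 FPKM at day 50 and 8504 FPKM at day 40. In bulk RNA, fewer cells of a type and less RNA per cell cannot be told apart, and the part of these other cells in the day differences was not tested.

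**Figure D4:**
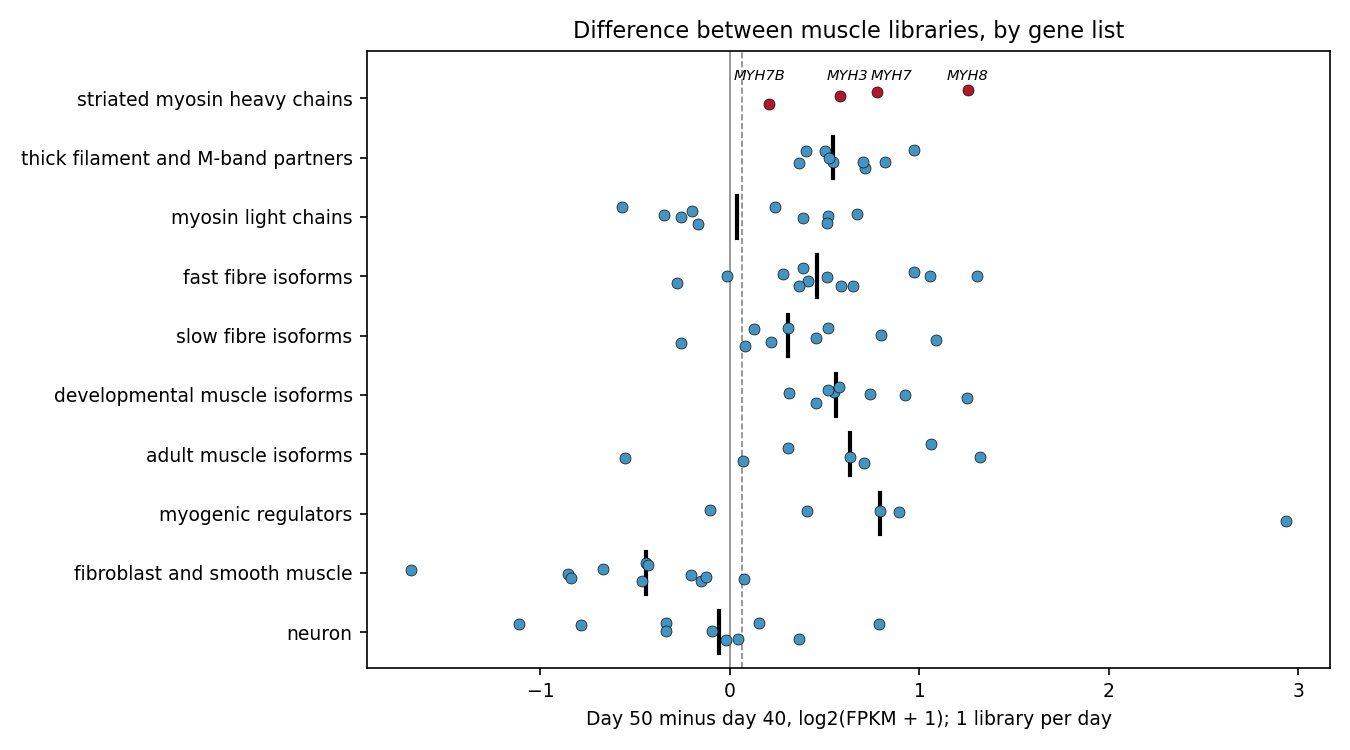
Difference of day 50 minus day 40 in log2(FPKM + 1) for each tested gene (points) of the heavy chains and of 9 other gene lists, with black bars for the median of each other list and a dashed line at 0.06 for the median of all genes. The 4 heavy chain genes lie between 0.21 and 1.25, and the fibroblast and smooth muscle genes lie mostly below 0.

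Against srNMP, the difference in muscle was measured for the 4 genes above 1 FPKM, and for MYH8 and MYH7B its direction follows from the filter. MYH3 averaged 1628 ± 458 FPKM in muscle (SD, n = 2) and 0.439 ± 0.133 FPKM in srNMP (SD, n = 4), a log2 change of 10.17 ± 0.24 (SE) with a limma adjusted p of 2.34e-11. MYH8 averaged 258.9 ± 150 FPKM in muscle and had 0 FPKM in each of the 4 srNMP libraries (limma adjusted p = 4.4e-10). MYH7 averaged 24.5 ± 9.46 FPKM in muscle and 0.1302 ± 0.0612 FPKM in srNMP, a change of 4.61 ± 0.37 (limma adjusted p = 1.49e-06). MYH7B averaged 8.57 FPKM in muscle and 0.113 FPKM in srNMP, a change of 3.14 ± 0.13 (limma adjusted p = 2.64e-09). Of all genes tested, 50.9% were called in this comparison, 18.0% higher and 32.9% lower, so a call alone does not set a gene apart. The size of a change depends on the pseudocount: with 0.1 FPKM in place of 1, the log2 change against srNMP was 11.69 for MYH3, 7.11 for MYH7 and 5.57 for MYH7B. Higher genes made 35.3% of the calls, and 48.3% when libraries were rescaled to equal sums.

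Against neurons, the direction for MYH8 and MYH7B again follows from the filter. The log2 changes were 9.48 ± 0.24 for MYH3 (limma adjusted p = 4.23e-11), 7.80 ± 0.26 for MYH8 (5.39e-10), 3.82 ± 0.37 for MYH7 (6.74e-06) and 3.08 ± 0.13 for MYH7B (3.33e-09). Here 47.5% of genes were called, 14.5% higher and 33.0% lower, and the 6718 calls became 4312 without the day 40 muscle library. In such a fit the lone muscle library is assumed to vary like the other groups. The MYH8 change against neurons was 8.42 without the day 40 library and 7.17 without the day 50 library. With a pseudocount of 0.1 FPKM the changes were 10.26 for MYH3, 10.48 for MYH8, 5.09 for MYH7 and 5.28 for MYH7B. Higher genes made 30.6% of these calls, and 46.5% after quantile normalization. Over all states, the lowest muscle library exceeded the highest other library 1324-fold for MYH8 and 709.7-fold for MYH3, but 23.9-fold for MYH7B and 5.56-fold for MYH7. That other library was ESC for MYH8, at only 0.115 FPKM, and the H1 dorsal neurons for MYH7, at 3.21 FPKM.

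The non-muscle and smooth muscle heavy chains, relatives that serve cell shape and smooth muscle, were measured beside them. The 3 tested were non-muscle chains. Smooth muscle MYH11, at 0.185 FPKM at day 50 and 0.452 FPKM at day 40, was too low to test. None of the 3 was called in muscle against srNMP at an adjusted p under 0.05, where 50.9% of all genes were called. Their limma log2 changes were 0.02 for MYH9, -0.55 for MYH10 and -0.22 for MYH14. MYH9 had 20.5 FPKM at day 50 and 38.6 FPKM at day 40. In muscle against neurons MYH9 was called higher and MYH14 lower, where 14.5% of all genes were called higher and 33.0% lower.

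In the lists below, genes under 1 FPKM in all 13 libraries outside muscle could enter the tests only by being high in muscle. The number of such genes is given beside each count. Over all genes, 18.0% were called higher and 32.9% lower than in srNMP. Myosin light chains, which bind the neck of each heavy chain, were higher in muscle than in srNMP for 8 of 10 tested and lower for none, with a median log2 change of 2.45 against -0.22 over all genes, and 3 of the 10 entered only through muscle. MYLPF, the fast regulatory chain, had 2403 FPKM at day 50 and 1684 FPKM at day 40 (log2 change of 10.82 ± 0.29 against srNMP, limma adjusted p = 8.18e-11). MYL1, the fast alkali chain, had 1495 and 1144 FPKM, MYL4, the embryonic and atrial chain, 581 and 406 FPKM, and MYL5 17.3 and 14.5 FPKM. MYL2, the regulatory chain of slow fibres and ventricle, was at 0.0382 FPKM at day 50 and listed at 0 at day 40, beside MYH7 at 31.2 and 17.8 FPKM; it was picked out after its values were seen.

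Of 10 thick filament and M-band partners, 9 were tested and called higher than in srNMP, but 5 of the 9 entered only through muscle, and MYBPC3, at 0 in both muscle libraries, was not tested. MYBPH and the slow-type MYBPC1, myosin-binding proteins, had 725 and 129 FPKM at day 50 and 442 and 88.1 FPKM at day 40. MYBPC2, the fast-type binding protein, had 81.6 and 41.2 FPKM, and MYOM1, which links filaments at the M-band, 74.0 and 55.7 FPKM. Of the folding and turnover list, 6 of 8 rose and 2 fell, and 4 of the 8 entered only through muscle. The muscle chaperone UNC45B had 57.4 FPKM at day 50 and 35.4 FPKM at day 40, the myosin methyltransferase SMYD1 63.0 and 37.1 FPKM, and the ubiquitin ligases TRIM54 and TRIM55 21.9 and 23.2 FPKM at day 50. The members that fell, named after their values were seen, were the general chaperones UNC45A (-1.05) and HSP90AA1 (-2.04).

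Slow and fast fibre genes other than heavy chains covered a wide range in muscle, with troponins among the high ones. Of 9 slow genes tested, 8 rose against srNMP and TPM3 fell (named after its values were seen), with a median of 4.70, and of 12 fast genes, 10 rose and none fell, with a median of 5.66. Of these, 3 slow and 5 fast genes entered only through muscle, and 2 slow genes, MYL2 and ANKRD2, were too low to test. Slow troponins TNNT1, TNNI1 and TNNC1 had 411, 258 and 728 FPKM at day 50 and 354, 189 and 689.6 FPKM at day 40. Fast troponins TNNT3 and TNNC2 had 518 and 737 FPKM at day 50 and 345 and 355 FPKM at day 40. CASQ2, the calcium store protein of slow and cardiac muscle, had 129.8 and 90.4 FPKM. Other genes, named after their values were seen, were low. Fast CASQ1 had 0.717 FPKM at day 50 and 0.292 FPKM at day 40, and MYOZ3 0.321 and 0.333 FPKM, with changes of -0.36 and -0.23 against srNMP that were not called. Fast ACTN3 had 2.71 and 1.88 FPKM, PVALB 1.74 and 2.33 FPKM, and slow ANKRD2 0.119 and 0.153 FPKM. Fast troponin and light chain genes were abundant in the libraries in which MYH1, MYH2 and MYH4 were below 0.5 FPKM.

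Developmental muscle isoforms rose against srNMP in 8 of 8 tested (median 6.91) and adult isoforms in 7 of 7 tested (median 4.44), where 5 of the 8 and 2 of the 7 entered only through muscle. ACTC1, the cardiac actin also used in developing skeletal muscle, had 5456 FPKM at day 50 and 3977 FPKM at day 40, and ACTA1, the adult skeletal actin, 476 and 292 FPKM. The fetal acetylcholine receptor subunit gene CHRNG had 140.2 and 95.5 FPKM, and its adult replacement CHRNE 0.421 and 0.214 FPKM, below the level needed for the tests. TNNT2, the cardiac and embryonic troponin, had 749 and 449 FPKM, and CDH15 161.8 and 84.7 FPKM. CKM, muscle creatine kinase, had 296 and 118.1 FPKM, MYOT 81.7 and 52.2 FPKM, and CACNG1, a calcium channel subunit, 33.6 and 15.6 FPKM.

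Regulators of fibre type rose against srNMP in 13 of 16 tested and fell in none (median 1.46), and 2 of the 16 entered only through muscle. MEF2C, a partner of the myogenic factors, had 126.1 FPKM at day 50 and 85.9 FPKM at day 40, VGLL2 14.5 and 5.40 FPKM, and TBX15 26.9 and 17.2 FPKM. Among the myogenic regulators 3 of 5 tested rose (MYOD1, MYOG and MYF6), the same 3 that entered only through muscle. PAX3 and PAX7 were not called (limma adjusted p = 0.608 each), and MYF5 was too low to test. By level, the defining markers of the labelled cell type, MYOD1 and MYOG, had at least 67.3 and 312 FPKM in both muscle libraries.

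Cardiac and eye muscle genes were looked at because MYH7 and MYH6 are also cardiac and MYH13 belongs to eye muscle. Of 7 cardiac markers tested, 2 rose against srNMP (SLN, and RYR2, named after its values were seen), with a median of 0.09, and 1 of the 7 entered only through muscle. MYL7, MYBPC3, GATA4, TBX20 and NPPB were listed at 0 in both muscle libraries, and NKX2-5 was at 1.59 FPKM in both. The 14 cardiac markers summed to 22.7 FPKM at day 50 and 7.13 FPKM at day 40, with SLN, which also occurs in skeletal muscle, at 13.97 and 2.47 FPKM. Of 4 head and eye muscle regulators tested, 2 rose, among them MSC with 22.2 FPKM at day 50 and 8.06 FPKM at day 40.

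Markers of other cells were also measured in the muscle libraries. Against srNMP, 10 of 11 fibroblast and smooth muscle genes rose (median 4.97), 2 of the 11 having entered only through muscle, with COL1A2, COL3A1 and LUM among them. Of 10 neuron genes 1 rose (DCX) and 3 fell, of 6 neural progenitor genes 1 rose (NES, named after its values were seen) and 4 fell, and of 5 pluripotency genes none rose and 1 fell (DPPA4) by limma at an adjusted p under 0.05. Over all genes tested, 18.0% were called higher and 32.9% lower. The falls of 3 of 10 neuron genes and 1 of 5 pluripotency genes did not exceed that share. POU5F1, NANOG, PRDM14 and ZFP42 averaged at most 0.211 FPKM in srNMP and could hardly fall. The part of other cell types in the heavy chain levels was not tested.

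Outside muscle, embryonic MYH3 was the only one of the 10 genes above 0.2 FPKM in all 13 libraries. It ranged from 0.269 FPKM in the HUES9 srNMP library of passage 8 to 1.84 FPKM in the H1 RABC progenitors. Neurons averaged 1.33 ± 0.185 FPKM, progenitors 1.32 ± 0.515 FPKM and srNMP 0.439 ± 0.133 FPKM (SD, n = 4 each), and the ESC library had 0.893 FPKM. The 4 neuron libraries did not overlap the 4 srNMP libraries, which ran from 0.269 to 0.591 FPKM. The share of all genes with such a separation was not counted, so it does not set MYH3 apart. Neurons were higher than srNMP by 0.69 ± 0.18 on the log2(FPKM + 1) scale (limma adjusted p = 0.00812). In that comparison 52.9% of all genes were called, 28.7% higher and 24.3% lower. After quantile normalization the MYH3 difference was 0.32 with a limma adjusted p of 0.188, and in HUES9 libraries alone 0.85 with an adjusted p of 0.0803. Higher genes made 54.2% of all calls, 71.8% with libraries rescaled to equal sums and 43.9% after quantile normalization.

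Slow MYH7 was unevenly spread among neurons. The H1 dorsal neurons had 3.21 FPKM, the HUES9 dorsal neurons 0.652, the H1 ventral neurons 0.577 and the HUES9 ventral neurons 0.314 FPKM. All 4 were above the srNMP libraries, which had 0.0638 to 0.212 FPKM, and above the progenitors at 0.00931 to 0.169 FPKM. For MYH7, too, the share of all genes with such a separation was not counted. Neurons exceeded srNMP by 0.79 ± 0.28 (limma adjusted p = 0.0358). That call rests on few libraries. Without the H1 dorsal neurons the difference was 0.43 with a limma adjusted p of 0.0583. The call was also lost without the HUES9 dorsal neurons (adjusted p = 0.0547), and without the H1 passage 25 (0.0904), the H1 passage 8 (0.0729) or the HUES9 passage 8 (0.0593) srNMP library in limma. In the H1 dorsal neuron library the cardiac marker sum was 16.7 FPKM, against 4.13 to 15.9 FPKM in the other neurons. Among these markers NPPA had the highest mean in neurons, at 8.63 FPKM, followed by TNNI3 at 1.67 and NPPB at 1.16 FPKM. Myogenic MYOG was at most 0.270 FPKM and MYOD1 at most 0.0649 FPKM outside muscle. The part of other cells in this value was not tested.

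**Figure D5:**
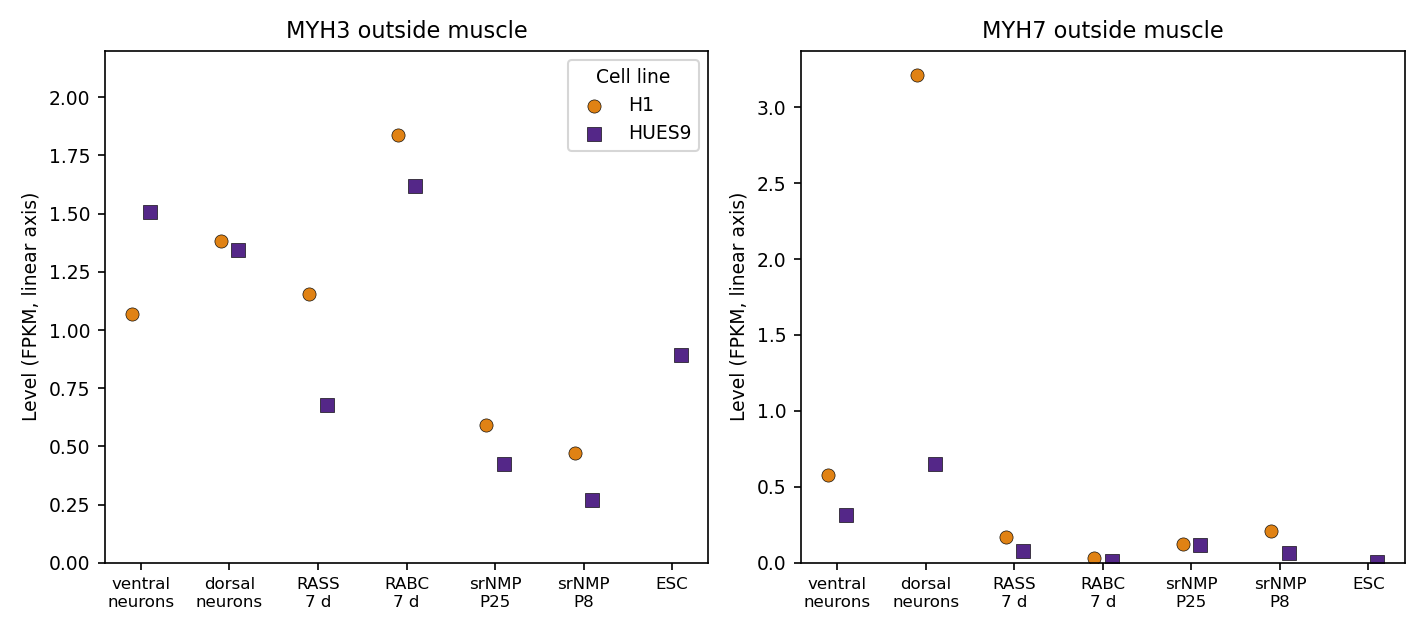
Level in FPKM (linear axes) of MYH3 on the left and MYH7 on the right in the 13 libraries outside muscle, with circles for H1 and squares for HUES9. MYH3 lies between 0.269 and 1.84 FPKM with srNMP lowest, and for MYH7 the H1 dorsal neurons (3.21 FPKM) stand above the rest.

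The remaining genes were at trace levels outside muscle. MYH8 ranged from 0.0581 to 0.101 FPKM in neurons, against 0 in each srNMP library, a difference of 0.10 ± 0.20 that did not pass the test (limma adjusted p = 0.702). With a pseudocount of 0.1 FPKM it was 0.79 and called (limma adjusted p = 0.0452). MYH7B ran from 0.0178 to 0.330 FPKM outside muscle, and neurons and srNMP differed by 0.06 ± 0.10 (limma adjusted p = 0.621). MYH4 was listed at 0 in all 13 libraries and MYH1 in all but the ESC library, which had 0.0302 FPKM. MYH2 was also highest in ESC among these 13 libraries, at 0.148 FPKM.

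The genes whose levels followed each heavy chain most closely over the 15 libraries were picked by Pearson's r of log2(FPKM + 1) among 11267 genes, as a description. The muscle libraries dominate this measure, since both are high and all others low. MYH3 was closest to MYL1 (r = 0.9975), MYLPF (0.9974) and MYBPH (0.9972). MYH8 was closest to TTN (0.9999), TRDN (0.9999) and MYOD1 (0.9998), MYH7B to IGFN1 (0.9978), SYNE3 (0.9974) and JPH2 (0.9973), and MYH7 to ARPP21 (0.9903), MEF2C (0.9845) and PODN (0.9824). Genes with an r above 0.99 numbered 95 for MYH3, 119 for MYH8, 103 for MYH7B and 1 for MYH7.

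MYH6, MYH7 and MYH7B each carry a microRNA in an intron, and these related microRNAs are shown to place them beside their host levels (RefSeq, GRCh38.p14; capitals mark the seed, bases 2 to 8).
hsa-miR-208a-3p, MYH6, chr14:23388602-23388623, minus strand: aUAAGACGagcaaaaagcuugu
hsa-miR-208b-3p, MYH7, chr14:23417997-23418018, minus strand: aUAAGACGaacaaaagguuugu
hsa-miR-499a-5p, MYH7B, chr20:34990408-34990428, plus strand: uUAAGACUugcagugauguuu
The MYH6 and MYH7 microRNAs share their seed. The host levels in muscle were 0.363 FPKM for MYH6, 31.2 for MYH7 and 9.25 for MYH7B at day 50, and 0.0776, 17.8 and 7.88 FPKM at day 40. MicroRNAs themselves were not measured by these libraries.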

How the data were processed

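The authors deposited FPKM for 17999 gene symbols. Build hg18 and the tools HISAT2, Cufflinks, HTSeq and Trimmomatic are named per the submitters' processing notes, with versions and settings not given in the sources used here. Per the labels' protocols, libraries were made with a stranded mRNA kit; whether counting used strand is not given. Columns were matched to samples by title, and 1 column of values that matched no sample was not used. The myosin genes, the 16 other gene lists and the tests were chosen with earlier results of these data known.

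The 14129 genes reaching 1 FPKM in any library were fitted as log2(FPKM + 1) in limma 3.58.1 (R 4.3.3), with 5 states, a term for cell line and a variance trend. Tests were two-sided moderated tests with Benjamini-Hochberg adjustment over all genes, called at an adjusted p under 0.05. Changes are on the log2(FPKM + 1) scale, which understates those of low genes. Muscle and ESC are HUES9 only. Both days form 1 muscle state, so their difference enters the spread. The cell line pairs libraries across groups, as the labels give it; over 15 pairs of groups, line differences correlated across genes at -0.53 to 0.38 (median 0.10). The scripts were tested on simulated data.

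Depth was estimated from low values, which were whole multiples of 1 fragment within 2% for 96.0% of 3529 values; relative depth was 0.954 to 1.051, over 478 genes. Of 8 myosin genes with low values, only 3 (MYH6, MYH7 and MYH13) had all at whole multiples of a unit set from their smallest value. That unit can be several fragments, so failing this check does not show fractional counts. It was 0.0335 FPKM for MYH8 and 0.00479 FPKM for MYH7. The 3 genes and annotated transcript lengths put the mean depth at about 34.3 M fragments. Summed FPKM were 290306 to 421109, and no libraries were identical. No fragment numbers or intervals are given for single genes. Named genes were the members, the first member of each list with up to 4 called members of largest change and at least 5 FPKM, and the 3 genes most like each member at 1 FPKM or more. Some genes that this rule names are not reported here. Coding sequences came from GENCODE 29, aligned with MAFFT 7.526; promoters and microRNAs came from RefSeq. Alternatives were another pseudocount, no filter, equal sums, quantile normalization, no line term, 9 groups, HUES9 alone and leaving out each library, plus other denominators for shares.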

Additional observations from a re-analysis of the deposited data

Results flagged for a closer look

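In 21 groups of 4 libraries, a library lying far from the other 3 was looked for, and chance marks about 1 in 20 such groups. That rate does not hold where the other 3 are at 0, since a lone value above 0 is then always marked. MYH7 in the H1 dorsal neurons, at 3.21 FPKM, lay apart from the other neurons, with a gap of 0.883 of the range of the group. The other marked values were single libraries above 0 in a group otherwise listed at 0. They were MYH2 at 0.109 FPKM in the HUES9 srNMP of passage 25, MYH6 at 0.0195 FPKM in the H1 srNMP of passage 25, MYH6 at 0.00492 FPKM in the H1 ventral neurons, MYH6 at 0.00476 FPKM in the H1 RABC progenitors, and MYH13 at 0.00484 FPKM in the H1 dorsal neurons.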

How the results depend on the processing

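The changes of MYH3, MYH8, MYH7 and MYH7B in muscle against srNMP and against neurons kept direction and call under every alternative run, though for MYH8 and MYH7B the filter fixes the direction and, without 1 muscle library, the other is assumed to vary like the other groups. A pseudocount of 0.1 raised the changes against srNMP to 11.69 for MYH3, 7.11 for MYH7 and 5.57 for MYH7B. Under the alternatives for shares, the isoform shares moved by less than 1 percentage point, a limit too wide to judge the small classes. With MYH6 and MYH7B counted as slow, the slow share was 1.74% at day 40 and 1.731% at day 50, against 1.203% and 1.323%. The order of the days was then reversed. Less the highest srNMP value, the fast share was 0.0187% at day 40 and 0.0166% at day 50, against 0.0260% and 0.0212%. Leaving out each library gave 9.88 to 10.46 for MYH3 and 4.22 to 4.998 for MYH7 against srNMP, and 7.17 to 8.42 for MYH8 against neurons; against srNMP, where MYH8 was at 0, no fold is given. Without each library, called genes numbered 5039 to 6971 in muscle against srNMP, 4312 to 6848 in muscle against neurons and 6354 to 7284 in neurons against srNMP. With no replicate block for cell line, the counts were 7482, 7249 and 7543 and no call of these 4 genes changed. In HUES9 alone, neurons against srNMP gave 3223 calls, with fewer libraries. A pseudocount of 0.1 gave 740 genes (425 higher, 315 lower) past a day difference of 1, against 220 (102 and 118). In neurons against srNMP, MYH3 was 0.32 after quantile normalization and 0.85 in HUES9 alone, both no longer called. MYH7 was 0.53 (adjusted p = 0.147) and 0.43 (0.286) under those settings, and 0.43 to 0.96 when leaving out each library. MYH7B turned to -0.0836 and -0.0549, uncalled in all. MYH8 was called only with a pseudocount of 0.1, at 0.79 (adjusted p = 0.0452). The cause was not tested. Fragment counts of the 6 genes below 1 FPKM are not known, and depth was only estimated. Differences among these genes were not judged against counting error.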
